A study of Homo sapiens with 12 samples.

Results

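A set of 10 early response genes, 3 of the EGR family (EGR1, EGR2, EGR3), 4 of the KLF family (KLF2, KLF4, KLF6, KLF10) and 3 of the IER group (IER2, IER3, IER5), were followed in HK-2, a line of immortalised epithelial cells from the human kidney's proximal tubule. The members were chosen by name, through every probe set that the array annotation gave to exactly 1 of these genes, under its current or a former symbol. This found 17 of the 54675 probe sets on the array, for 9 of the 10 genes. The annotation used here names no probe set for EGR2. The cultures received a compound named only Aa in the labels, at a low dose, or the control vehicle, and each was kept for 24 h or 48 h, which gives 4 groups of 3 arrays. All cells grew near confluence in a medium with EGF, insulin, hydrocortisone, transferrin and selenite, so that control cells too were under a growth factor that induces early response genes. The sources used here do not say what Aa stands for, what the dose was in numbers or what the vehicle was. The series is part of a wider search for expression signatures of kidney toxicity, and the question here was which of these genes differed with Aa after either exposure, and for which of them the longer exposure gave another effect.

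Early response genes are switched on within minutes of a growth factor, a stress or DNA damage, without new protein synthesis, and their messenger RNAs are usually short-lived. The EGR proteins are zinc finger transcription factors that bind GC-rich sites, and growth factors induce EGR1 through ERK kinases and the serum response factor SRF, which binds a sequence called the CArG box. KLF proteins share 3 zinc fingers at the carboxyl end and bind GC boxes and CACCC sequences. The IER genes are grouped by their rapid induction rather than by a shared protein fold. In renal tubular cells, genes of this kind are known to be induced by oxidative, toxic and ischaemic injury.

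The promoters of EGR1, which fell, and of KLF4 and IER5, the members with the largest measured rises at 48 h, are shown to place known control sequences beside the values. Each line gives 250 bases up to the base before the RefSeq gene start in GRCh38.p14, 5′ to 3′ on the gene's strand, with matches on either strand to the CArG box, TGACG (the core of the site bound by CREB), GAANNTTC (inverted units of a heat shock element) and GCGNGGGCG (the EGR site) in capitals. EGR1 lies on the plus strand at chr5:138465229-138465478, KLF4 on the minus strand at chr9:107489770-107490019 and IER5 on the plus strand at chr1:181088450-181088699.
EGR1: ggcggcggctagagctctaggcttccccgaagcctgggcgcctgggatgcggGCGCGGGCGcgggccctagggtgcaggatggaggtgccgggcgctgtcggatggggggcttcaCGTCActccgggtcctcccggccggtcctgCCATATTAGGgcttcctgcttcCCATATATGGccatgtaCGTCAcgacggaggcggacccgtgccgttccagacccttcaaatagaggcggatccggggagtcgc
KLF4: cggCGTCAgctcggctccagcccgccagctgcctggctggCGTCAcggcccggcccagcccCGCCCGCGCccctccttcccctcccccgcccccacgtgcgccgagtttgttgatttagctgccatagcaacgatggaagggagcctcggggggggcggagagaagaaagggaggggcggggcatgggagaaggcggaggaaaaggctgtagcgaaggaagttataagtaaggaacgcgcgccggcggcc
IER5: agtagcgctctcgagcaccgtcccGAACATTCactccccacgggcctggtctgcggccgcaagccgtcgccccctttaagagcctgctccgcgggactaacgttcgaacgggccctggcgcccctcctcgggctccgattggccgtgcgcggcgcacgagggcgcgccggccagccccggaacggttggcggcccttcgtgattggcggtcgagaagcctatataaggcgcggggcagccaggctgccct
EGR1 held 2 CArG boxes, starting 105 and 83 bases before the gene start, 2 TGACG matches and 1 EGR site. KLF4 held 2 TGACG matches and 1 EGR site, and IER5 held 1 GAANNTTC match, 226 bases before its start. No base of these windows lay in 2 of the motifs. Of 35116 promoter windows of this length, 1.16% held a CArG box, 21.2% TGACG, 5.78% GAANNTTC and 8.41% the EGR site. Among the members not shown, KLF2 and KLF6 each held 1 EGR site, and IER2 held 1 TGACG match. EGR2, with 3 windows, held 1 CArG box and 2 TGACG matches in 1 of them. A match describes the letters and does not show that a factor was bound. The table of RefSeq promoters used here held 7 of the 10 members.

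The values are log2 intensities per probe set, so a difference of 1 is a doubling of signal, and levels of different genes are not comparable on this scale. Probe sets with a mean of at least 4 over the 12 arrays were kept, and each gene was represented by its brightest probe set. Of the members, 8 passed and were tested among 10791 genes. EGR3 did not pass: its probe set read 2.80, 2.82 and 2.88 in Aa cells and 2.92, 2.86 and 2.89 in control cells at 24 h, and 2.84, 2.85 and 2.87 in Aa cells and 2.87, 2.84 and 2.90 in control cells at 48 h. Differences are Aa minus control, SE is the standard error from limma's linear model, and p-values are adjusted over all genes tested by the Benjamini-Hochberg method. "Rose" and "fell" are used for an adjusted p under 0.05, and every group has n = 3. RNA came from whole cultures, so fewer cells of a kind and less RNA per cell cannot be told apart.

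Within a group, pairs of arrays had a Pearson's r over probe sets of 0.994 to 0.997, against 0.981 to 0.992 where an Aa array was set against a control array of its time. The signal of actin control probe sets at the 3′ end over the 5′ end, which grows as RNA degrades, averaged 0.82 ± 0.16 (SD) in Aa cells and 0.79 ± 0.10 in control cells at 24 h, and 0.90 ± 0.22 in Aa cells and 0.78 ± 0.19 in control cells at 48 h. The 3 probe sets for 28S ribosomal RNA averaged 7.28 ± 0.22 in Aa cells and 6.37 ± 0.08 in control cells at 24 h, and 7.56 ± 0.25 in Aa cells and 6.74 ± 0.16 in control cells at 48 h. Of 15 renal epithelial markers 8 passed the filter, among them PAX8, CDH6 and the keratins KRT8 and KRT18, while LRP2, CUBN, AQP1 and SLC34A1, which define mature proximal tubule, did not. The summed log2 levels of the 15 ran from 105 to 107 in Aa cells and from 109 to 110.4 in control cells at 24 h, and from 103 to 106 in Aa cells and from 109 to 110.3 in control cells at 48 h. The part of these shifts in the results below was not tested. Of 5 endothelial and 4 leukocyte markers with a probe set 0 passed the filter, and of 7 fibroblast markers 3 passed (COL1A1, DCN and LUM).

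EGR1 was the member that fell. Its probe set 227404_s_at read 10.11, 10.71 and 10.27 in Aa cells and 11.62, 11.85 and 11.83 in control cells at 24 h. All Aa arrays lay below all control arrays. EGR1 fell by 1.40 (SE 0.25, adjusted p = 0.00305 in limma), a 2.64-fold lower level with Aa, and 1.94% of all genes tested had a lower difference. The call was lost in 1 of 24 alternative settings, without the arrays numbered 1 in all groups (-1.35, adjusted p = 0.0854). At 48 h it read 10.58, 11.06 and 10.12 in Aa cells and 11.58, 11.01 and 11.69 in control cells, and here the groups overlapped, since the Aa and control arrays numbered 2 were about equal. EGR1 fell by 0.84 (SE 0.25, adjusted p = 0.0229). By replicate number it was -1.0, 0.05 and -1.57, against -1.51, -1.13 and -1.56 at 24 h. This call was lost in 8 of 24 alternatives, with adjusted p from 0.00309 to 0.284. The difference was -1.28 without the arrays numbered 2 in all groups and -0.47 (adjusted p = 0.284) without those numbered 3.

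A second probe set of EGR1, 201694_s_at, was also lower with Aa at both times. It averaged 7.37 ± 0.07 (SD) in Aa cells and 8.39 ± 0.08 in control cells at 24 h, a fall of 1.02 (SE 0.28, adjusted p = 0.0241 over probe sets in limma), and 7.58 ± 0.64 in Aa cells and 8.35 ± 0.41 in control cells at 48 h, where -0.76 (SE 0.28) missed the threshold (adjusted p = 0.056). Its Aa array numbered 2 was again above the control array of that number at 48 h, by 0.27. The third probe set, 201693_s_at, lay between 2.21 and 2.55 on all arrays and was not tested. Whether the fall of EGR1 changed between the times could not be shown, with a change of 0.56 (95% interval -0.22 to 1.34, adjusted p = 0.499).

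**Figure D1:**
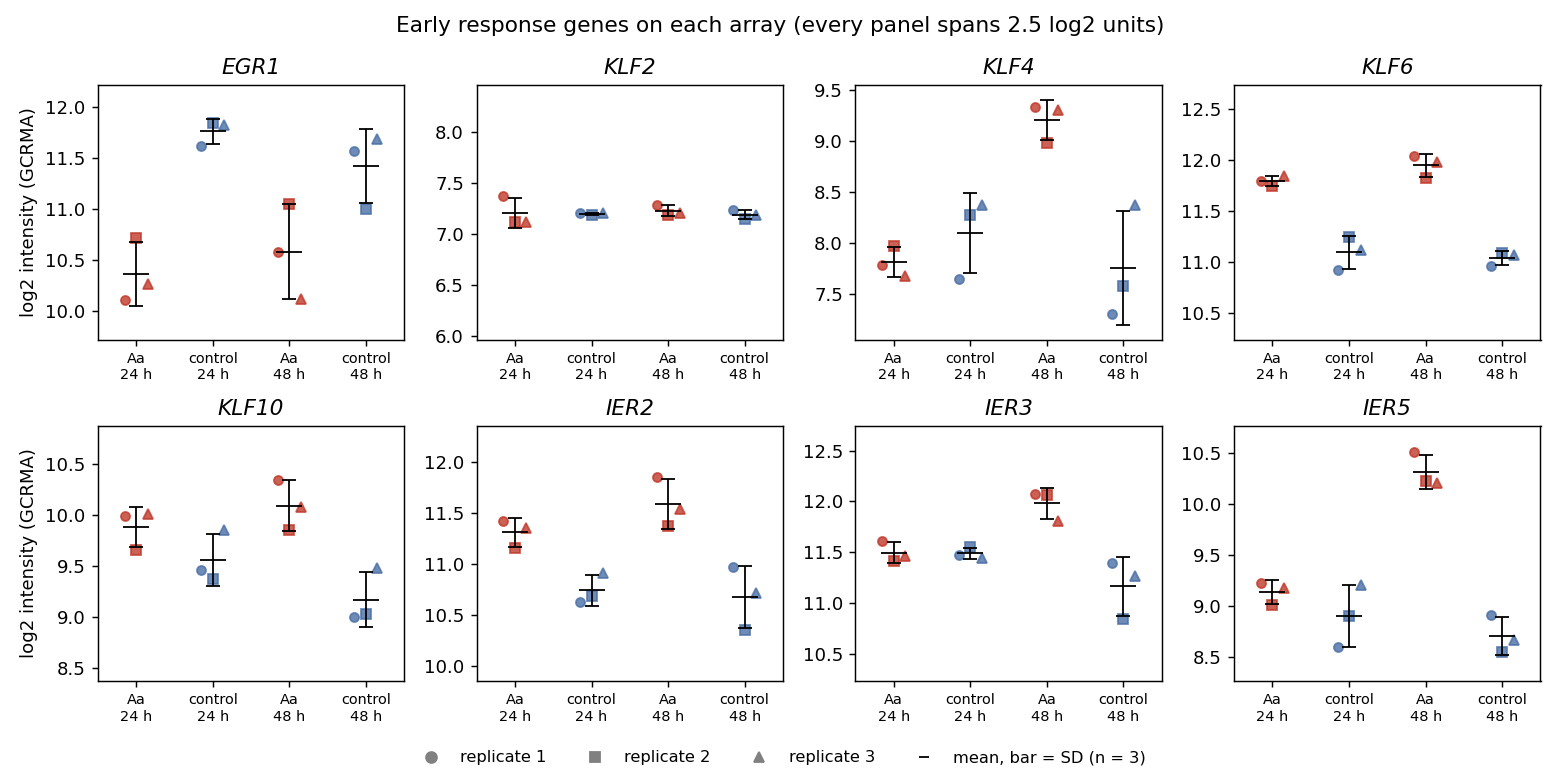
Log2 intensity (GCRMA) of the 8 members tested, on each of 12 arrays, by group; red points are Aa and blue points control arrays, the marker gives the replicate number, and lines are the mean ± SD of 3 arrays. EGR1 lies lower with Aa at 24 h, while its groups overlap at 48 h. KLF6 and IER2 lie higher with Aa at both times. KLF4, KLF10, IER3 and IER5 lie higher without overlap at 48 h, and the KLF2 values lie within 0.26 of each other.

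Of the 8 members tested 3 changed at 24 h, 2 up and 1 down, where 23.1% of all genes tested changed (10.3% up and 12.8% down; 41.3% with the replicate number as a block, and 22.3% of probe sets). KLF6 and IER2 were the ones that rose. At 48 h 7 changed, 6 up and 1 down, where 37.8% of all genes did (17.8% up and 20.1% down; 54.8% with the block, and 33.9% of probe sets). The median difference of the members was 0.12 at 24 h and 0.91 at 48 h, beside medians of -0.02 and -0.00089 over all genes tested. Groups did not overlap in 3 members at 24 h and in 6 at 48 h, where 40.5% and 48.4% of all genes were separate. The members were chosen with earlier results of these data known, so these counts and medians describe the set and do not test it. The rises of KLF4, KLF6, IER2, IER3 and IER5 at 48 h kept their calls under all alternatives run for them. For KLF6 these alternatives took its brightest probe set or the mean of its probe sets. Its probe sets 208961_s_at (0.14) and 208960_s_at (0.04) did not pass at 48 h.

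KLF4 encodes a transcription factor of epithelial differentiation that can stop the cell cycle and that serves in reprogramming to stem cells. Its probe set 221841_s_at read 7.78, 7.97 and 7.68 in Aa cells and 7.65, 8.27 and 8.37 in control cells at 24 h, and the groups overlapped (difference -0.28, SE 0.26, adjusted p = 0.485). At 48 h the readings were 9.34, 8.98 and 9.31 in Aa cells and 7.30, 7.58 and 8.38 in control cells, with every Aa array above every control array. KLF4 rose by 1.46 (SE 0.26, adjusted p = 0.00187), or 2.74-fold, and 1.71% of genes tested had a higher difference. The second probe set, 220266_s_at, read 5.69, 5.68 and 5.65 in Aa cells at 48 h, against 3.32, 3.28 and 4.19 in control cells. It passed the filter of 4 only through these Aa arrays, since its means in the other groups were 3.66 (Aa, 24 h), 3.77 (control, 24 h) and 3.60 (control, 48 h), so it is given as a description and not as support for the rise.

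In Aa cells KLF4 was higher at 48 h than at 24 h by 1.40 (SE 0.26, adjusted p = 0.0155), while control cells differed by -0.34 (SE 0.26, adjusted p = 0.532). The change of the Aa difference between times was 1.74 (SE 0.37), with an adjusted p of 0.0708 without the replicate block and 0.0166 with it. The rise within Aa cells lost its call in 6 of 24 alternatives, each of which left out arrays. Without the arrays numbered 1 in all groups it was 1.32 (adjusted p = 0.176).

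KLF6, a ubiquitous factor that activates growth-inhibitory genes such as CDKN1A, was higher with Aa at both times. Its probe set 224606_at read 11.80, 11.75 and 11.85 in Aa cells and 10.92, 11.24 and 11.12 in control cells at 24 h, and 12.04, 11.82 and 11.98 in Aa cells and 10.96, 11.09 and 11.07 in control cells at 48 h. Aa arrays were above control arrays throughout. At 24 h KLF6 rose by 0.70 (SE 0.10, adjusted p = 0.00112), and at 48 h it rose by 0.91 (SE 0.10, adjusted p = 0.000146), which is 1.63-fold and 1.88-fold. The levels at 48 h and 24 h did not differ beyond their spread in Aa cells (0.15, adjusted p = 0.435) or in control cells (-0.05, adjusted p = 0.813).

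The probe sets of KLF6 disagreed. Of 4 past the filter, 1555832_s_at also rose, with 0.57 at 24 h (SE 0.13, adjusted p = 0.010 over probe sets) and 0.42 at 48 h (SE 0.13, adjusted p = 0.0301). The rest did not pass: 208961_s_at differed by -0.07 (95% interval -0.42 to 0.28) and 0.14 (-0.20 to 0.49), and 208960_s_at by -0.31 (-0.77 to 0.14) and 0.04 (-0.41 to 0.49). With the replicate number as a block 208960_s_at fell at 24 h (adjusted p = 0.0349). These probe sets were bright, with means over the arrays of 11.21 for 208961_s_at and 10.47 for 208960_s_at. When KLF6 was taken as the mean of its 4 probe sets, the difference was 0.22 (adjusted p = 0.197) at 24 h and 0.38 (adjusted p = 0.0261) at 48 h. The fifth probe set, 211610_at, lay between 2.40 and 2.51 on all arrays.

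**Figure D2:**
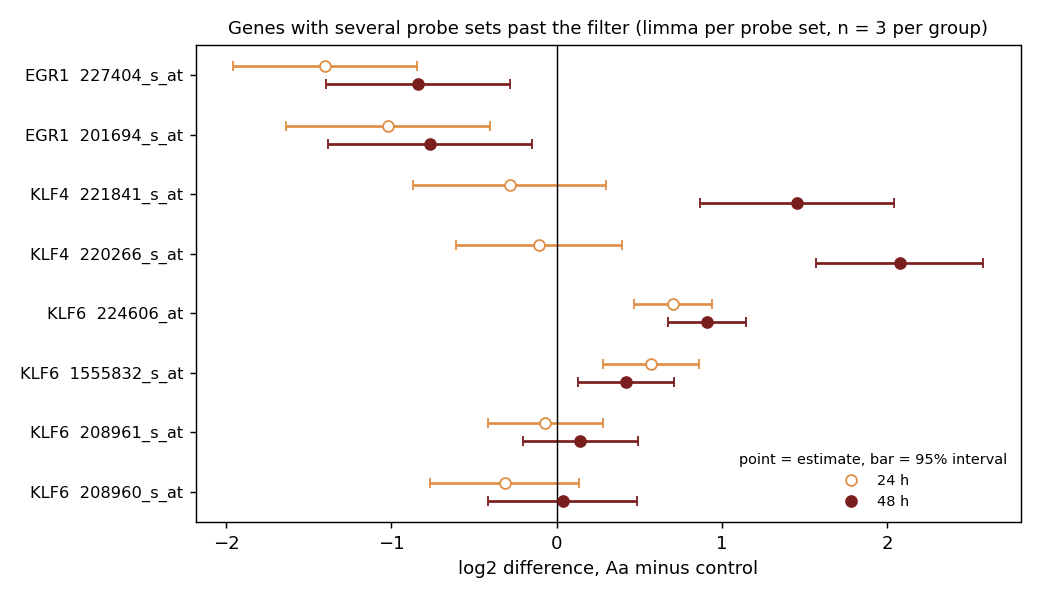
Log2 difference, Aa minus control, of each probe set past the filter for EGR1, KLF4 and KLF6, at 24 h (open) and 48 h (filled), with 95% intervals from limma per probe set (n = 3 arrays per group). Both EGR1 probe sets lie below 0, the KLF4 probe set 221841_s_at lies above 0 at 48 h, as does 220266_s_at, which passed the filter only through the Aa arrays of 48 h, and KLF6 has 2 probe sets above 0 and 2 whose intervals span 0.

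KLF10 encodes a repressor that TGF-beta induces early. It read 9.99, 9.66 and 10.01 in Aa cells and 9.47, 9.37 and 9.85 in control cells at 24 h, where the groups overlapped (0.32, SE 0.19, adjusted p = 0.241). At 48 h it read 10.35, 9.86 and 10.08 in Aa cells and 9.00, 9.03 and 9.48 in control cells, without overlap, and rose by 0.92 (SE 0.19, adjusted p = 0.00325). Within Aa cells the level at 48 h was 0.21 above that at 24 h (adjusted p = 0.575), and within control cells it was 0.39 below it (adjusted p = 0.316). Neither passed, and the change of the Aa difference between times, 0.60 (95% interval 0.02 to 1.18), did not either (adjusted p = 0.334). Without the arrays numbered 1 in all groups the difference at 48 h was 0.71 and the call was lost (adjusted p = 0.0973).

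KLF2, best known as a factor of quiescent endothelium and T cells, passed no test. Its probe set 219371_s_at read 7.37, 7.12 and 7.12 in Aa cells and 7.21, 7.18 and 7.21 in control cells at 24 h, and 7.29, 7.19 and 7.21 in Aa cells and 7.24, 7.15 and 7.19 in control cells at 48 h. The differences were 0.0053 (95% interval -0.19 to 0.20, adjusted p = 0.977) and 0.04 (-0.16 to 0.24, adjusted p = 0.781). The 12 values spanned 0.26, less than those of the other members tested (1.12 to 2.04). A second probe set, 226646_at, lay at 1.93 to 1.96.

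IER5 had the highest difference at 48 h among the members' brightest probe sets, and in the fit without the replicate block it was the member whose Aa effect passed the test of a change between the times, while KLF4 and IER3 also passed with the block. Its protein is nuclear, binds the phosphatase PP2A and promotes the activity of the heat shock factor HSF1. The level was 9.22, 9.01 and 9.18 in Aa cells and 8.60, 8.90 and 9.21 in control cells at 24 h, with overlap (0.23, SE 0.16, adjusted p = 0.333). At 48 h it was 10.51, 10.23 and 10.21 in Aa cells and 8.91, 8.55 and 8.67 in control cells. IER5 rose by 1.61 (SE 0.16, adjusted p = 8.27e-05), or 3.05-fold, and the differences by replicate number were close together, at 1.60, 1.68 and 1.55. A higher difference was found in 1.24% of genes tested.

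The Aa difference of IER5 was larger at 48 h than at 24 h by 1.37 (SE 0.23, adjusted p = 0.0262), a change that 0.825% of all genes tested showed. In Aa cells IER5 was higher at 48 h than at 24 h by 1.18 (SE 0.16, adjusted p = 0.00574), and in control cells the difference between times was -0.20 (adjusted p = 0.561). By mean, Aa cells at 48 h (10.32) were highest, before Aa cells at 24 h (9.14), control cells at 24 h (8.90) and control cells at 48 h (8.71), while Aa and control cells at 24 h, and control cells at 48 h and 24 h, did not differ beyond their spread. The test of the change between times lost its call in 11 of 24 alternatives, all of which left out arrays. It was lost whichever replicate number was left out in all groups (adjusted p = 0.366, 0.182 and 0.205 without numbers 1, 2 and 3). Over the 24 its value ran from 1.22 to 1.58 and its adjusted p from 0.0100 to 0.366.

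IER2, a nuclear protein of growth factor responses, was higher with Aa at both times. It read 11.43, 11.16 and 11.35 in Aa cells and 10.62, 10.68 and 10.92 in control cells at 24 h, and 11.86, 11.38 and 11.54 in Aa cells and 10.97, 10.35 and 10.71 in control cells at 48 h. The groups did not overlap at either time. IER2 rose by 0.57 (SE 0.17, adjusted p = 0.0353) at the earlier time and by 0.91 (SE 0.17, adjusted p = 0.00228). The call at 24 h was lost in 7 of 25 alternatives, with adjusted p from 0.00688 to 0.176 and values of 0.45 to 0.66, and that at 48 h in 0 of 25.

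IER3 encodes a protein that acts on apoptosis, and NF-kB and p53 regulate the gene. Its level at 24 h was 11.62, 11.41 and 11.47 in Aa cells and 11.47, 11.55 and 11.45 in control cells, with overlap and a difference of 0.0090 (95% interval -0.30 to 0.32, adjusted p = 0.974). At 48 h it was 12.08, 12.06 and 11.81 in Aa cells and 11.40, 10.84 and 11.27 in control cells, without overlap, and IER3 rose by 0.81 (SE 0.14, adjusted p = 0.00143), or 1.76-fold. Aa cells at 48 h were 0.48 above those at 24 h (SE 0.14, adjusted p = 0.0722; 0.0279 with the replicate block), and control cells were 0.32 below (SE 0.14, adjusted p = 0.287). The change of the Aa difference was 0.81 (SE 0.20), with an adjusted p of 0.102 without and 0.0262 with the replicate block.

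**Figure D3:**
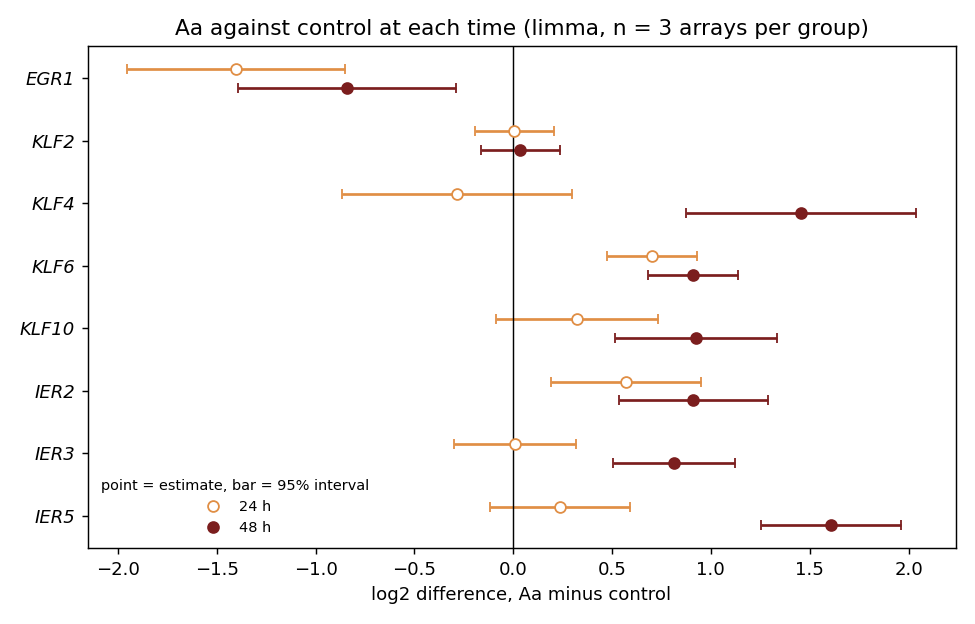
Log2 difference, Aa minus control, of the 8 members tested at 24 h (open) and 48 h (filled), with 95% intervals from limma (n = 3 arrays per group). EGR1 lies below 0 at both times, KLF2 has intervals that span 0 at both times, and the other 6 lie above 0 at 48 h, with KLF4 (1.46) and IER5 (1.61) farthest.

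Between the times, 2 of 8 members rose in Aa cells (KLF4 and IER5, 3 with the replicate block), where 5.5% of all genes tested changed (21.3% with the block). In control cells 0 of 8 changed in limma at either setting, where 0.5% of genes did (17.8% with the block). Of the 8, IER3 had the lowest unadjusted p in that comparison, 0.0439, and it was the only one under 0.05. The groups of Aa cells did not overlap between times in 3 members and those of control cells in 1, where 24.2% and 23.1% of genes were separate. The change of the Aa difference passed in 1 member (3 with the block), where 0.825% of genes passed (11% with the block).

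**Figure D4:**
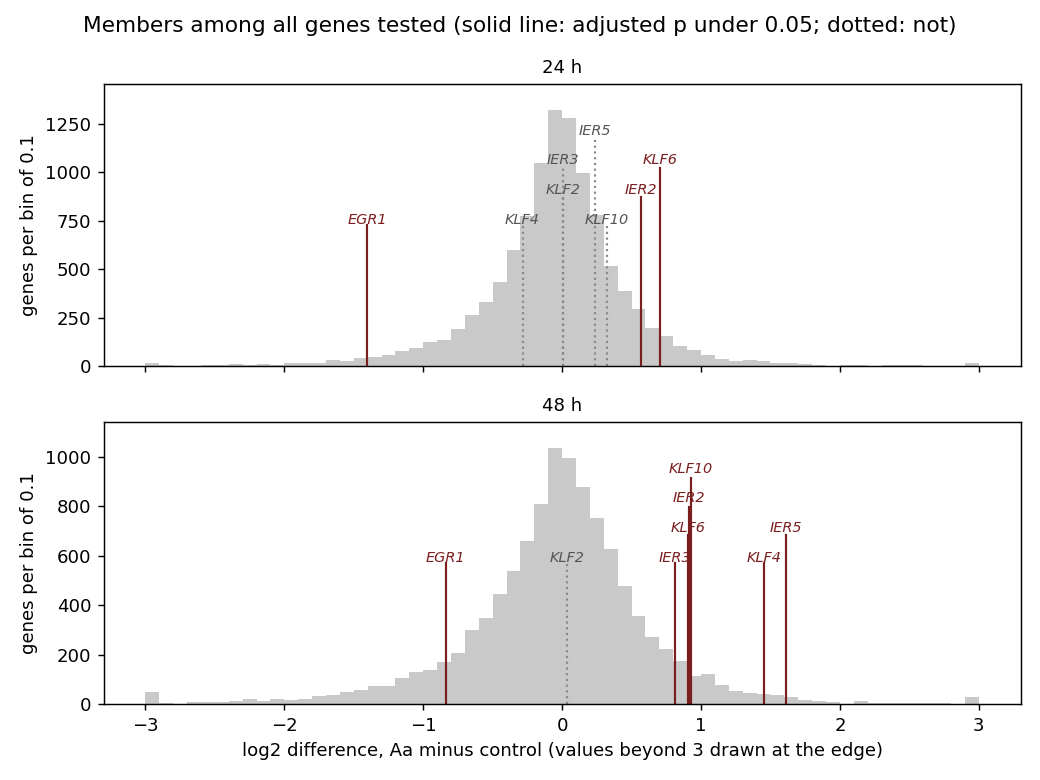
Number of genes per bin of 0.1 by log2 difference, Aa minus control, over 10791 genes tested at 24 h (top) and 48 h (bottom), with the 8 members as lines (solid: adjusted p under 0.05; dotted: not) and values beyond 3 drawn at the edge. At 24 h 5 members are dotted, and at 48 h 6 members lie between 0.81 and 1.61.

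All 10 members are short genes, with spans from start to end of 1.35 to 9.21 kb in GRCh38.p14, where the median of the genes tested was 30.5 kb. Among the 2174 tested genes that span under 10 kb, 6.95% rose and 18.1% fell at 24 h, and 17% rose and 20.7% fell at 48 h.

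The spread between arrays of a group differed among the members. The residual SD was 0.36 for KLF4 and 0.34 for EGR1, at the 87th and 85th percentile of all genes tested, whose median was 0.19. It was 0.08 for KLF2 and 0.11 for KLF6, at the 6th and 14th percentile. The remaining 4 lay between 0.17 (IER3) and 0.24 (KLF10).

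NAB1 and NAB2, corepressors that bind EGR proteins, differed by 0.12 (adjusted p = 0.457) and -0.46 (adjusted p = 0.0577) at 48 h and did not pass, while NAB2 fell with the replicate block (adjusted p = 0.00619). Of 10 reported EGR1 targets tested, 2 rose and 1 fell at 24 h (3 and 3 with the block), and at 48 h 3 rose and 1 fell (4 and 4). These counts stand beside 23.1% and 37.8% of all genes tested (41.3% and 54.8% with the block), and the shares at 24 h and 48 h without the block lie near those of all genes. HPSE, the gene of heparanase, is the one counted as falling without the block, and it passed the filter only through control cells. It averaged 3.99 in Aa cells and 6.66 in control cells at 24 h, and 3.51 in Aa cells and 6.16 in control cells at 48 h, and no fold is given because the Aa means lie under the filter value. The stress genes GADD45A (1.03) and GADD45B (2.00) and the cell cycle inhibitor gene CDKN1A (1.66) rose at 48 h, GADD45B and CDKN1A also at 24 h. The median of the list was -0.01 at 24 h and 0.02 at 48 h.

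Of 13 other KLF genes listed, 7 were tested, of which at 24 h none rose and 1 fell (2 and 2 under the block) and at 48 h 1 rose and 3 fell (2 and 3), with a median of -0.07 at 48 h. Of all genes tested 23.1% and 37.8% changed at these times (41.3% and 54.8% with the block), and nothing particular to the list follows from its counts. KLF11, a close relative of KLF10, rose by 0.45 (SE 0.13, adjusted p = 0.0180) at 48 h. KLF12 fell by 2.23 (SE 0.51), KLF3 by 0.61 (SE 0.13) and KLF13 by 0.46 (SE 0.13). Of 4 SP genes, whose products bind the same GC boxes, SP4 fell by 0.46 (SE 0.15) at 48 h, and the others did not pass at that time, with or without the block. At 24 h none passed without the block. With it SP1 (0.26, adjusted p = 0.0364) and SP3 (0.26, adjusted p = 0.0190) rose, where 41.3% of all genes changed.

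Among the genes upstream of the EGR and KLF genes, SRF rose by 0.39 (SE 0.13, adjusted p = 0.0346) and its cofactor gene ELK3 fell by 0.59 (SE 0.18, adjusted p = 0.0226) at 48 h. ELK3 had fallen by 0.99 (SE 0.18, adjusted p = 0.00300) at 24 h, and the remaining 4 of these 6 genes passed at neither time without the replicate block. With it 2 rose and 1 fell at 24 h, the rises being ELK4 (0.18, adjusted p = 0.0404) and MRTFB (0.22, adjusted p = 0.0408). At 48 h 1 rose and 3 fell with the block, and the same ELK4 (-0.17, adjusted p = 0.0393) and MRTFB (-0.27, adjusted p = 0.0126) were among the falls. Of 10 genes of the ERK and ERK5 cascades 2 rose and 1 fell at 48 h (2 and 4 with the block). MAPK7, the gene of ERK5, rose by 0.51 (SE 0.17), MAP3K3 by 0.45 (SE 0.15), and MAP2K5, the kinase gene between them, fell by 1.5 (SE 0.35). Of 7 genes of CREB and its kinases, CREM rose by 1.36 (SE 0.28, adjusted p = 0.00367) at 48 h and 6 did not pass (2 rose and 1 fell with the block). Of all genes 37.8% passed at 48 h, and 54.8% with the block, and nothing particular to these lists follows from their counts.

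RNA-binding proteins that act on AU-rich elements, through which many early response RNAs are degraded or held, gave 2 rises and 0 falls among 8 genes at 48 h (4 and 0 with the block). Of all genes 37.8% changed at 48 h, 17.8% up and 20.1% down (54.8% changed with the block). Whether the list differs from all genes was not tested. TIA1 rose by 0.71 (SE 0.16) at 24 h and rose by 0.58 (SE 0.16) at 48 h, and KHSRP, a decay factor, rose by 0.44 (SE 0.13) at 48 h. Among 9 partners of IER proteins, PPP2CA, a catalytic subunit of PP2A, rose by 0.37 (SE 0.08, adjusted p = 0.00506) at 48 h and 8 did not pass (2 rose and 1 fell with the block), against 37.8% of all genes (54.8% with the block).

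Of 19 further immediate early genes tested, at 24 h 1 rose and 4 fell (2 and 6 under the block), whereas at 48 h 6 rose and 4 fell (8 and 8), with a median of 0.02 at 48 h. Of all genes 23.1% changed at 24 h and 37.8% at 48 h (41.3% and 54.8% with the block), and whether the list differs from them was not tested. SNAI1, a repressor of epithelial genes, rose by 1.11 (SE 0.12) at 48 h and the G protein regulator RGS2 by 1.62 (SE 0.24). TIPARP fell by 1.30 (SE 0.20) and the kinase gene PLK2 by 0.98 (SE 0.15). The change of the Aa difference between times passed in 2 of the 19, both upward (5 up and 4 down with the block). Of all genes 0.825% passed (11% with the block). Without the block the 2 were GEM (1.58, adjusted p = 0.0262 in limma) and SNAI1 (1.00, adjusted p = 0.0275).

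The genes most like each member were found by the root mean square difference of values centred on their mean over the 12 arrays, as a description. For EGR1 these were ADCK1 (0.16) and HIRIP3 (0.23), where the SD of EGR1 itself over the arrays was 0.67. For KLF4 they were GEM (0.24), a small GTPase gene that is itself an immediate early gene, and CTSV (0.28), and for KLF6 SERTAD2 (0.08) and RBBP5 (0.09). MRPL49 and KIF18B (both 0.14) were closest to KLF10, and ZNF266 and PHLDA2 (both 0.12) to IER2. SRRT (0.13) and PCOLCE (0.16) were closest to IER3, and RETSAT (0.20) and CSRNP2 (0.21) to IER5. For KLF2 they were WDR36 (0.05) and MIR1244-3 (0.06), where the SD of KLF2 itself was 0.07, so that likeness to it says little.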

How the data were processed

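Total RNA of 12 HK-2 cultures was hybridised to whole-genome oligonucleotide arrays. The deposited values are log2 intensities, normalised by the authors with GCRMA per the submitters' processing notes (version not given in the sources used here). Gene names came from GEO's platform annotation, updated through gene identifiers: 41097 probe sets had 1 symbol, 1801 several and 11777 no entry. With R 4.3.3 and limma 3.58.1 (lmFit and eBayes without trend), 4 group means were fitted to all 12 arrays, and 5 contrasts were tested, two-sided, with Benjamini-Hochberg adjustment over 10791 genes. Each gene was its brightest probe set with 1 symbol and a mean log2 value of at least 4. Alternatives changed the filter, the normalization, the variance prior, the handling of probe sets and the arrays included. Named genes are all members, up to 4 genes per list with the smallest p at 48 h, and 2 genes most like each member. Members and lists were chosen with earlier results of these data known. The code was tested on simulated data.

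The labels number the replicates alike in all groups without saying what a number shares. Deviations from group means correlated with r from 0.36 to 0.61 between arrays of the same number in different groups (18 pairs) and from -0.50 to -0.02 otherwise (36 pairs), and 12 of 12 arrays were closest to one of their own number. Deviations within a group cancel out, so positive values for the same number bring negative values otherwise, and the negative range is no separate evidence. Pairing here rests on the correlation between arrays of the same number alone. A fit with the number as a block was an alternative. How the biological replicates were separated is not stated, hence p-values reflect only how far these arrays vary, which may be technical, and the number of arrays limits the precision.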

Additional observations from a re-analysis of the deposited data

Results flagged for a closer look

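The Aa difference of IER5 was larger at 48 h than at 24 h by 1.374 on the log2 scale (SE 0.23, adjusted p = 0.0262 in limma), so the difference between the times passed its own test as an interaction, as it did in 89 of 10791 genes. The call was lost in 11 of 24 alternatives, all of which left out arrays, and it was lost whichever replicate number was left out in all groups. IER5 averaged 10.32 ± 0.17 (SD, n = 3) in Aa cells and 8.71 ± 0.18 in control cells at 48 h, and 9.14 ± 0.11 in Aa cells and 8.90 ± 0.31 in control cells at 24 h.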

How the results depend on the processing

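Of 967 values of members under alternatives, 895 kept their direction and their side of the threshold, 38 lost a call, 8 gained one and 26 changed sign. All values that changed sign lay near 0 and had no call. With replicates left out the ranges for KLF2 were -0.079 to 0.050 (Aa against control, 24 h), -0.013 to 0.12 (change between times), -0.020 to 0.11 (Aa cells, 48 h against 24 h) and -0.032 to 0.015 (control cells, 48 h against 24 h). They were -0.059 to 0.082 for IER3 at 24 h, -0.016 to 0.45 for EGR1 in Aa cells between times, and -0.27 to 0.098 for IER2 and -0.14 to 0.020 for KLF6 in control cells between times. KLF2 in control cells read 0.0092 with median-centred arrays and 0.0059 after quantile normalization, against -0.0077.

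Without single arrays or all arrays of 1 number, 1 to 3 members changed at 24 h (3 in the fit to all arrays), 5 to 7 at 48 h (7), 0 to 2 between times in the Aa difference (1) and 0 to 3 between times in Aa cells (2). At 24 h the low of 1 came without the arrays numbered 1, and it was KLF6 that passed. With the replicate block the change of the Aa difference passed in 3 members, and with the mean of probe sets in 2 (IER5, and KLF4 with its faint probe set averaged in). When probe sets with an s or x suffix (shared sequence) were dropped, 3 members remained to be tested (KLF6, IER2 and IER5): 3 changed at 48 h and 1 in Aa cells between times. In the main fit 37.8% and 5.5% of all genes changed in these comparisons, and nothing particular to the members follows from these counts. Besides the change of the Aa difference in KLF4 and IER3, the replicate block altered the call of IER3 in Aa cells between times. It also altered that of the KLF6 probe set 208960_s_at at 24 h, and no other call of a member.

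Over all genes, the counts at 24 h were 4457 with the block and 536 to 2628 with replicates left out (2494). At 48 h they were 1549 to 4146 with replicates left out (4083). Counted over 19629 probe sets in place of genes, 4379 changed at 24 h (22.3%, beside 23.1% of genes). At 48 h 6651 probe sets did (33.9%, beside 37.8% of genes). For the change between times the counts of genes were 1183 with the block, 57 with median-centred arrays, 49 without shared-sequence probe sets and 0 to 255 with replicates left out (89). In Aa cells between times they were 2303 with the block, 11 when only the compared groups were fitted and 3 to 716 with replicates left out (594). In control cells they were 1919, 0 and 1 to 361 (54), and 23 of the 19629 probe sets changed. Counts of probe sets have another unit than counts of genes, and the cause of the other shifts was not tested.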
